A study of Mus musculus with 47 samples.

Results

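NZO/HlLtJ and CAST/EiJ livers were compared on the 44% fat diet. NZO/HlLtJ (below NZO) is the New Zealand Obese strain, an inbred mouse in which many alleles together give obesity and, in males above all, diabetes. CAST/EiJ (below CAST) is an inbred strain derived from wild Mus musculus castaneus. The members of the comparison are the 16 libraries labelled with both a 44% fat diet and one of these strains, out of 47 in the whole series, with 8 libraries in NZO and 8 in CAST and 4 of each sex in both. All 16 share the labels wild type and no treatment, a high-fat, high-sugar diet with added fiber from week 6, and collection of the liver at week 15. The libraries of the same 2 strains on the 10% fat control diet, also with fiber, serve as a second, separate measurement of the strain difference (8 NZO and 7 CAST libraries), and the 8 C57BL/6J libraries on 44% fat give the level in the strain on which the reference genome is based. Whether every library is from its own animal is not in the labels. The spread that p-values rest on is that between libraries, which may be technical.

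The liver turns dietary sugar into fatty acids and cholesterol under the control of SREBP transcription factors and ChREBP, stores triglyceride in lipid droplets, and exports it in lipoproteins. In obesity with high insulin, lipid synthesis tends to stay high while the suppression of glucose output by insulin fails. The liver also makes most plasma proteins, detoxifies foreign compounds with cytochrome P450 enzymes, and holds a large population of resident macrophages, the Kupffer cells. In bulk RNA a lower level of a cell type's genes can mean fewer such cells or less RNA per cell, and these cannot be told apart.

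Library totals were 21609240 to 47780231 counts in NZO and 32339956 to 46447929 in CAST, and the shallowest library was NZO male 1. The sex labels fit the sex-linked genes: Xist was at 836 CPM or more in every female library and at 3.22 CPM or less in every male library (CPM are counts scaled for library size, here with TMM factors). Log2 CPM correlated at 0.984 to 0.995 between libraries of the same strain and sex, at 0.966 to 0.987 between the sexes of a strain, and at 0.909 to 0.941 between the strains. The titles carry identifiers that fall into 3 runs of consecutive numbers, which the labels do not explain. Run 1 holds 4 NZO and 2 CAST libraries of this diet, run 2 holds 2 NZO (both male) and 4 CAST, and run 3 holds 2 NZO (both female) and 2 CAST. Values within runs are given beside the main results. Apart from the GRCm38 build, how reads were aligned and counted is not given in the sources used here. It is therefore not known whether reads of CAST, the more divergent strain, were counted as completely as those of NZO, and the part of this in any single gene was not tested.

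Of 15354 genes tested with edgeR, 9179 (59.8%) were called different between the strains at an adjusted p under 0.05. Of these 4750 (30.9%) were higher in NZO and 4429 (28.8%) were lower, and the median log2 fold change (NZO minus CAST, as everywhere below) over all genes tested was 0.011. With a change of at least 2-fold also required, 3120 genes (20.3%) were called, 1801 (11.7%) higher and 1319 (8.59%) lower. At least 8-fold differences were called for 429 genes higher in NZO and 337 lower, and at least 32-fold differences for 179 and 131. For 3487 genes (22.7%) the 8 NZO and the 8 CAST values did not overlap, with NZO above CAST in 1839 (12%) and below in 1648 (10.7%). Each identifier run fitted alone, with 4 to 6 libraries, called 3945, 4749 and 4027 genes. Because most genes are called, the count of a gene list is read below against 30.9% and 28.8%.

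**Figure D1:**
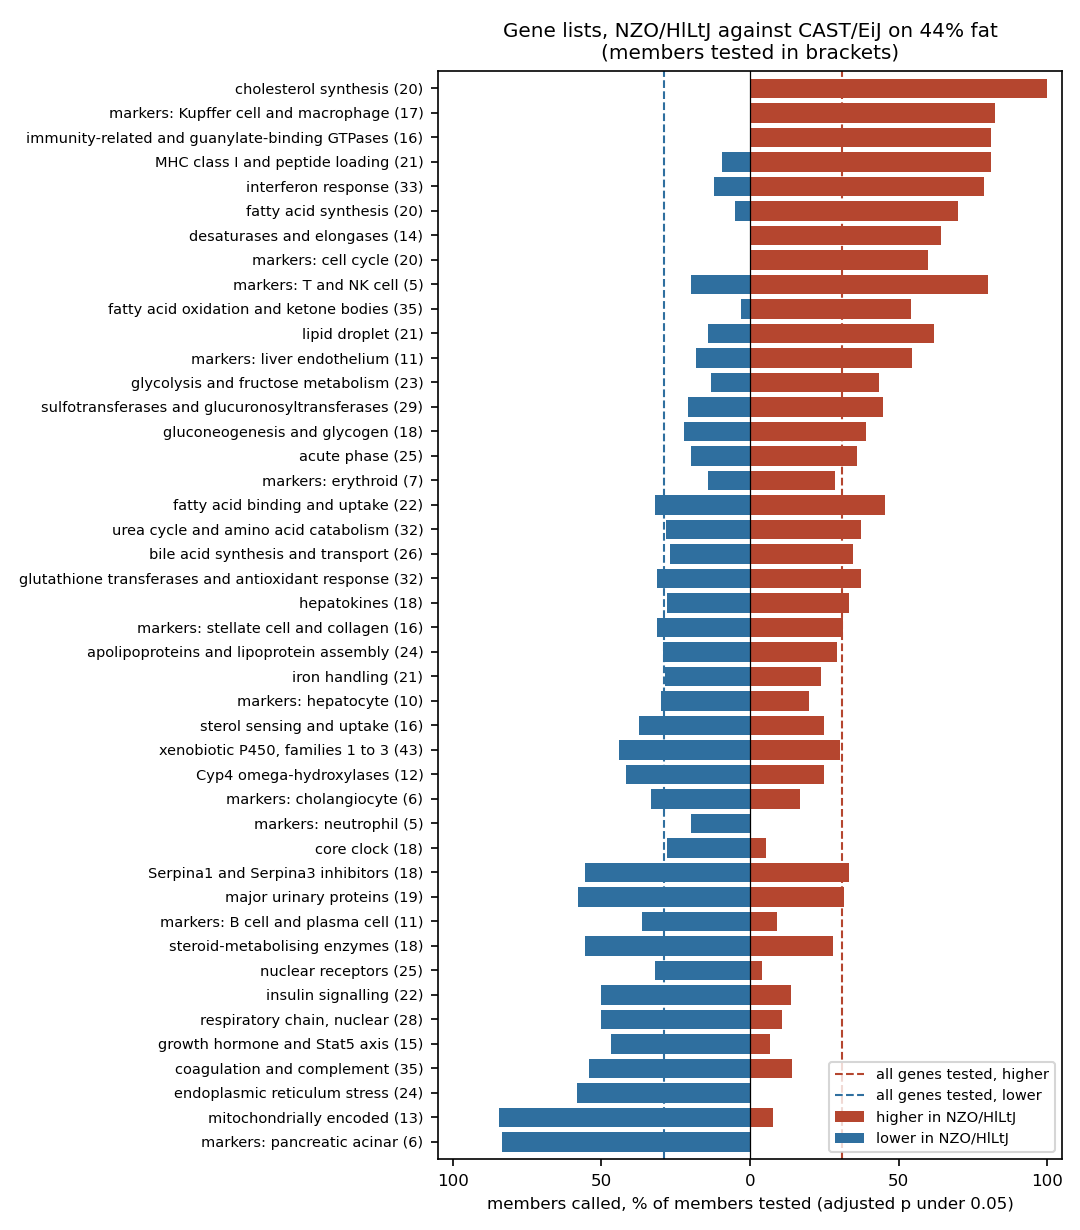
Share of the members of each gene list called higher (right, red) or lower (left, blue) in NZO/HlLtJ than in CAST/EiJ on 44% fat, in percent of the members tested. The dashed lines are the shares over all genes tested, 30.9% and 28.8%. Cholesterol synthesis has 20 of 20 members to the right and the endoplasmic reticulum stress list has 14 of 24 to the left with none to the right.

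The 12 highest of the called and well-expressed genes were Hamp2, Cyp2b13, Tmem254b, Aqp4, Hist2h2aa2, Mup20, Iigp1, A4gnt, Rpl9-ps6, Rarres1, Rpl19-ps11 and Gbp10. Rarres1, which encodes a membrane protein inducible by retinoids, was at 29.9 to 46.3 CPM (median 33) in NZO and at 0 to 0.0878 CPM (median 0.0128) in CAST (log2 fold change 10.42, SE 0.25, adjusted p = 1.34e-15). The CAST side of this fold rests on 7 counts, and over the alternative fits the log2 fold change ran from 4.66 to 13.26. A4gnt, a glycosyltransferase known from gastric mucus, was at 49 to 106 CPM (median 78.2) in NZO, at 0 to 0.103 CPM (median 0) in CAST and at no more than 0.273 CPM in C57BL/6J. Aqp4, a water channel, had no count in any CAST library and was at 10.9 to 29.8 CPM (median 19.8) in NZO, at least 2061-fold higher with CAST set to 3 counts over its 8 libraries. A4gnt was therefore on in NZO alone of the 3 strains, whereas Rarres1 and Aqp4 also had C57BL/6J medians of 30.3 and 6.69 CPM.

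The 12 lowest were Mup15, Mug4-ps, Mx2, Tas1r1, Ces2b, Rps13-ps1, Eno1b, Cyp39a1, Mup17, Mup18, Moxd1 and Ces2h. Ces2b and Ces2h encode carboxylesterases, which hydrolyse drugs and acylglycerols. Ces2b was at 0.0455 to 1.73 CPM (median 0.188) in NZO and at 128 to 230 CPM (median 162) in CAST (log2 fold change -8.78, SE 0.45, adjusted p = 5.73e-10), with C57BL/6J at a median of 0.0827 CPM. Tas1r1, a subunit of the umami taste receptor, was at 0.0242 to 0.259 CPM (median 0.164) in NZO, at 37.1 to 128 CPM (median 68) in CAST and at a median of 0.0927 CPM in C57BL/6J. Cyp39a1, an oxysterol 7-alpha-hydroxylase of bile acid synthesis, was at 0.15 to 0.459 CPM (median 0.364) in NZO and at 29.5 to 166 CPM (median 82.4) in CAST, while C57BL/6J was at a median of 36.6 CPM. The Ces2b, Ces2h and Tas1r1 levels thus set CAST apart from both other strains, and the Cyp39a1 level set NZO apart from both. Moxd1, a copper monooxygenase, was at 0.257 CPM or more in CAST and reached 993 CPM (means 0.379 CPM in CAST females and 896 CPM in CAST males). Its log2 fold change of -7.48 (SE 1.42, adjusted p = 4.29e-04) became -12.62 without NZO male 2, the one NZO library at 15.9 CPM.

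Some genes had essentially no counts in one strain. Whether their RNA was absent there or its reads were not counted was not tested. At no more than 0.1 CPM in every library of one strain and at least 1 CPM in every library of the other, 27 genes were found in NZO alone and 23 in CAST alone. The 27 comprised 21 protein-coding genes, 2 pseudogenes and 4 long non-coding RNAs, and 17 of the 27 were also at 1 CPM or more in every C57BL/6J library. Among the 23 found in CAST were 12 protein-coding genes, 7 pseudogenes and 4 long non-coding RNAs, and only 3 of the 23 were on in every C57BL/6J library. On 10% fat 21 of the 27 and 14 of the 23 met the same limits. Tgtp2, an interferon-induced GTPase, had 1497 counts in NZO and 3 in CAST, a ratio of 497 with a 95% counting interval of 170 to 2410, and reads can be shared with its close copy Tgtp1. Olfm3, a secreted olfactomedin, was at 3.5 to 11.7 CPM (median 7.52) in NZO and had no count in CAST, at least 770.1-fold higher in NZO. Nlrp1a, an inflammasome sensor, was at 1.11 to 1.9 CPM (median 1.51) in CAST and had no count in NZO, at least 153-fold lower in NZO. Pseudogenes differed most often: 212 of 379 tested (55.9%) were called at 2-fold or more, against 38.6% of long non-coding RNAs and 17.5% of protein-coding genes. Reads of a pseudogene and its parent can be exchanged in counting, so the single values of Rpl9-ps6, Rpl19-ps11, Rps13-ps1 and Eno1b, and of the near-identical histone gene Hist2h2aa2 and Tmem254b, are uncertain.

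Neighbouring genes often differed together. Along the chromosomes 33 stretches held at least 4 consecutive tested genes called at 2-fold or more in one direction. Many were families of close copies. The longest held 10 genes at chr2:177000956-177770472, all lower in NZO and all with gene-model names. Mup11 to Mup15 were lower in NZO at chr4:60658466-61439743. Ifit2, Ifit3, Ifit3b and Ifit1, interferon-induced RNA-binding proteins, were all higher at chr19:34550694-34650009, and Slfn5, Slfn9, Slfn8, Slfn2 and Slfn4 of the Schlafen family were higher together with Unc45b at chr11:82910550-83190221. Ly6e, Ly6a, Ly6c1 and Ly6c2, small lipid-anchored surface proteins, were higher at chr15:74955051-75111970. Elovl6, the elongase that makes C18 fatty acids, lay in a stretch of 4 higher genes at chr3:129269175-129638495, and Mogat1 lay in another at chr1:78497026-78707743.

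Genes of cholesterol synthesis were higher in NZO without exception: 20 of 20 tested were called higher and none lower, with a median log2 fold change of 1.74. For 2 of the 20 the 8 and 8 values did not overlap, close to the 12% of all genes tested that lay higher in NZO without overlap. Hsd17b7, which acts late in the pathway, was one of these, at 60.6 to 121 CPM (median 94.6) in NZO and at 22.2 to 40.7 CPM (median 29.5) in CAST (log2 fold change 1.61, SE 0.15, adjusted p = 9.62e-08). Pmvk, phosphomevalonate kinase, was the other, at 8.9 to 70.3 CPM (median 50.3) in NZO and at 1.29 to 5.77 CPM (median 3.33) in CAST (log2 fold change 3.67, SE 0.45, adjusted p = 7.03e-06). Fdps, which makes farnesyl diphosphate, was at 29 to 325 CPM (median 242) in NZO and at 8.84 to 55.5 CPM (median 21.1) in CAST (log2 fold change 3.18, SE 0.54, adjusted p = 1.76e-04). The summed level of the 20 genes was 1010 to 3960 CPM in NZO and 1070 to 1580 CPM in CAST. The lowest NZO library, NZO male 1, lay below all CAST libraries. The median of this sum was 3050 CPM in NZO, 1150 CPM in CAST and 2590 CPM in C57BL/6J on this diet. The strain difference was larger in females, with a median log2 fold change of 2.18 against 0.885 in males, and 7 of the 20 genes passed the test of that difference (6.99% of all genes did). Sqle, squalene epoxidase, showed it most plainly of the genes named here: its mean was 93.5 CPM in NZO females, 22 in NZO males, 2.14 in CAST females and 15.4 in CAST males, and the female minus male difference of the log2 fold changes was 4.90, SE 0.99, adjusted p = 0.0115. Averaged over the sexes, Sqle had a log2 fold change of 2.85 (adjusted p = 0.0223), and without any one of the 4 CAST females its adjusted p was 0.0546 to 0.0586. The list's median within runs 1, 2 and 3 was 1.78, 0.834 and 2.53, with 1, 2 and 18 members called in the single runs.

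Genes that sense and take up cholesterol moved less uniformly, with 4 of 16 called higher and 6 lower, beside 30.9% and 28.8% of all genes tested. Abcg8, a sterol exporter into bile, was lower in NZO, at 36.6 to 84.9 CPM (median 65.2) against 109.7 to 236 CPM (median 164) (log2 fold change -1.49, SE 0.22, adjusted p = 3.01e-05). Scarb1, the receptor for high-density lipoprotein, listed with the lipoprotein genes, was lower as well, at 60.2 to 110 CPM (median 76.3) against 182 to 285 CPM (median 226) (log2 fold change -1.52, SE 0.12, adjusted p = 9.74e-09). Abca1, which lipidates nascent high-density lipoprotein, was also lower (log2 fold change -0.69, SE 0.11, adjusted p = 3.23e-05). Neither Scarb1, Abcg8 nor Abca1 had overlapping values between the strains.

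Fatty acid synthesis was higher too, with 14 of 20 members called higher, 1 lower and a median log2 fold change of 1.36. The median of the members' summed level was 40400 CPM in NZO, 7000 CPM in CAST and 27700 CPM in C57BL/6J on this diet. Fasn, fatty acid synthase, was at 268 to 6779 CPM (median 3777) in NZO and at 338 to 918 CPM (median 469.9) in CAST (log2 fold change 2.74, SE 0.46, adjusted p = 1.28e-04). Me1, malic enzyme, which supplies NADPH, was at 170.1 to 913 CPM (median 608) in NZO and at 51.5 to 129.8 CPM (median 69) in CAST (log2 fold change 2.99, SE 0.28, adjusted p = 3.23e-07). Scd1, the delta-9 desaturase, was at 4019 to 45790 CPM (median 25570) and at 1809 to 5973 CPM (median 2753) (log2 fold change 2.95, SE 0.45, adjusted p = 5.54e-05). Of the 3, Me1 did not overlap between the strains, whereas in Fasn and Scd1 the NZO range reached down into that of CAST through NZO male 1, at 268 and 4020 CPM. This library was the lowest of the 8 NZO libraries for Fasn, Scd1, Me1, Sqle, Fdps, Pmvk, Aacs, Pnpla3, Srebf1 and Hamp2, and without it Fasn and Scd1 had log2 fold changes of 2.94 and 3.09. Aacs, which activates acetoacetate for lipid synthesis, was at 26.7 to 192 CPM (median 148) in NZO against 11.8 to 17.5 CPM (median 14.8) in CAST (log2 fold change 3.08, SE 0.35, adjusted p = 3.12e-06). Srebf1, which encodes the transcription factor SREBP1, had overlapping values, 141 to 474 CPM (median 379) in NZO and 108 to 435 CPM (median 256) in CAST, and just missed the threshold (log2 fold change 0.41, SE 0.17, adjusted p = 0.0504). Srebf1 passed in 7 of 31 alternatives, among them DESeq2 (adjusted p = 0.0312) and the fit without NZO male 1 (adjusted p = 0.0123), CAST female 1 (adjusted p = 0.026) or CAST male 4 (adjusted p = 0.0319). Mlxipl, which encodes ChREBP, was the list's lower member, at 241 to 344 CPM (median 297) in NZO and 366 to 693 CPM (median 565) in CAST (log2 fold change -0.83, SE 0.099, adjusted p = 1.14e-06). Within runs 1, 2 and 3 the list's median was 1.28, 1.42 and 1.77, and that of Fasn alone 2.72, 2.53 and 3.33.

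Of 14 desaturases and elongases 9 were higher and none lower. Elovl5, which lengthens polyunsaturated fatty acids, was at 806 to 1832 CPM (median 1380) in NZO and at 373 to 641 CPM (median 541) in CAST (log2 fold change 1.43, SE 0.16, adjusted p = 5.54e-07). Of 21 lipid droplet genes 13 were higher and 3 lower, and 6 of the 21 lay higher without overlap, against 12% of all genes tested. Plin2, the main droplet coat protein of hepatocytes, was at 348 to 742 CPM (median 480.4) in NZO and at 125 to 204 CPM (median 159) in CAST (log2 fold change 1.59, SE 0.15, adjusted p = 7.92e-08). Fitm1, which helps to form droplets and is best known from muscle, was at 7.56 to 23 CPM (median 13.7) in NZO and at no more than 0.0453 CPM in CAST (log2 fold change 9.87, SE 0.25, adjusted p = 1.34e-15). Bscl2 (seipin), which organises droplet formation at the endoplasmic reticulum, was 1.78-fold higher at an adjusted p of 2.14e-08. The 3 lower members were the lipases Lipe and Pnpla2, which release fatty acids, and Hsd17b11, named here after their values were seen, with log2 fold changes of -0.76, -0.85 and -0.63.

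Pparg, the nuclear receptor PPAR-gamma that is low in lean liver and rises in fatty liver, was at 5.19 to 12.1 CPM (median 9.19) in NZO and at 0.226 to 1.35 CPM (median 0.514) in CAST (log2 fold change 3.90, SE 0.26, adjusted p = 1.37e-09). All 8 NZO libraries lay above all 8 CAST libraries, and the C57BL/6J median on this diet was 11.1 CPM. Mogat1, a monoacylglycerol acyltransferase that PPAR-gamma is known to induce, was at 3.07 to 13.5 CPM (median 9.41) in NZO and at 0 to 0.615 CPM (median 0.137) in CAST (log2 fold change 5.59, SE 0.55, adjusted p = 4.69e-07). Cd36, a fatty acid transporter, was at 157 to 301 CPM (median 218) and at 18.6 to 149.8 CPM (median 63) (log2 fold change 2.02, SE 0.37, adjusted p = 2.67e-04). Mogat1 and Cd36 did not overlap, and in both the strain difference was larger in males, where CAST was lowest: Cd36 means were 240.2 and 212 CPM in NZO females and males and 129 and 23.7 CPM in CAST females and males, with a female minus male difference of -2.28, SE 0.29, adjusted p = 3.64e-04. Pnpla3, a droplet lipase whose human variants raise liver fat, was at 0.224 to 387 CPM (median 117) in NZO and at 0.398 to 7.83 CPM (median 2.05) in CAST (log2 fold change 5.41, SE 0.79, adjusted p = 4.32e-05). Its NZO values ran from below the CAST range to far above it, with means of 292 CPM in NZO females and 22.7 in NZO males.

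**Figure D2:**
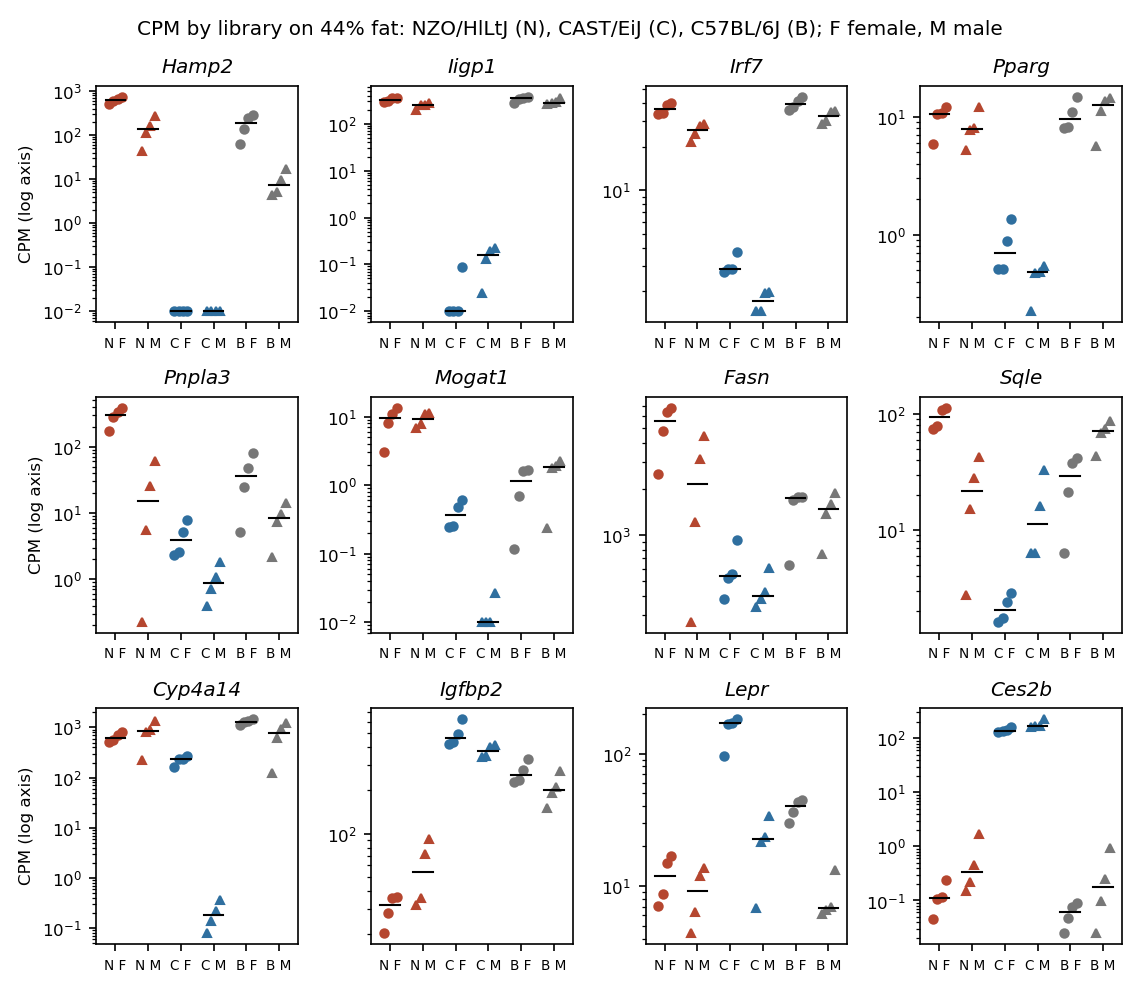
CPM on a log axis of 12 genes in each library on 44% fat, by strain and sex: NZO/HlLtJ (N, red), CAST/EiJ (C, blue) and C57BL/6J (B, grey), circles for females, triangles for males, points ordered by level within a group, black lines for medians, and values under 0.01 CPM drawn at 0.01. Irf7 and Pparg lie higher in every NZO library than in any CAST library, Igfbp2 and Ces2b lower, while one NZO male lies below every CAST library for Fasn and Pnpla3.

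Cidea and Cidec, droplet genes of fatty liver, did not separate the strains as clearly. Cidea was at 0 to 2.9 CPM (median 0.232) in NZO and at 0 to 0.0878 CPM (median 0) in CAST (log2 fold change 4.91, SE 1.08, adjusted p = 9.23e-04), which rests on 200 counts in NZO and 5 in CAST. Cidec did not pass the test, at 0.845 to 8.78 CPM (median 2.35) against 1.67 to 4.34 CPM (median 2.42) (log2 fold change 0.18, SE 0.45, adjusted p = 0.748). Its log2 fold change was -0.91 in females and 1.26 in males. Fabp4, a fatty acid carrier of adipocytes, macrophages and endothelium, was lower in NZO (log2 fold change -0.72, SE 0.23, adjusted p = 0.012), but higher at 0.13 in run 3 alone.

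Of 35 genes of fatty acid oxidation and ketone bodies 19 were called higher and 1 lower (2 lower without NZO male 1 or NZO male 3), with a median log2 fold change of 0.257, and only 2 of the 19 reached 2-fold. The median was 0.0574 in females and 0.447 in males, and 11 of the 35 passed the test of a sex-dependent strain difference, against 6.99% of all genes. Decr1, the 2,4-dienoyl-CoA reductase of mitochondria, was at 178 to 221 CPM (median 208) in NZO and at 89 to 128 CPM (median 105) in CAST (log2 fold change 0.97, SE 0.078, adjusted p = 8.02e-09). Acads, short-chain acyl-CoA dehydrogenase, was 1.6-fold higher (adjusted p = 1.54e-08). Fgf21, a fasting and PPAR-alpha hormone of the liver, was at 0.895 to 7.47 CPM (median 3.32) in NZO and at 0.143 to 1.2 CPM (median 0.787) in CAST (log2 fold change 2.47, SE 0.48, adjusted p = 4.17e-04). Genes of fatty acid binding and uptake were mixed, with 10 of 22 higher and 7 lower. Among them Vldlr, which takes up triglyceride-rich lipoprotein, was higher without overlap, at 8.9 to 50.1 CPM (median 22.5) against 0.521 to 5.26 CPM (median 2.42) (log2 fold change 3.52, SE 0.28, adjusted p = 4.1e-08).

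**Figure D3:**
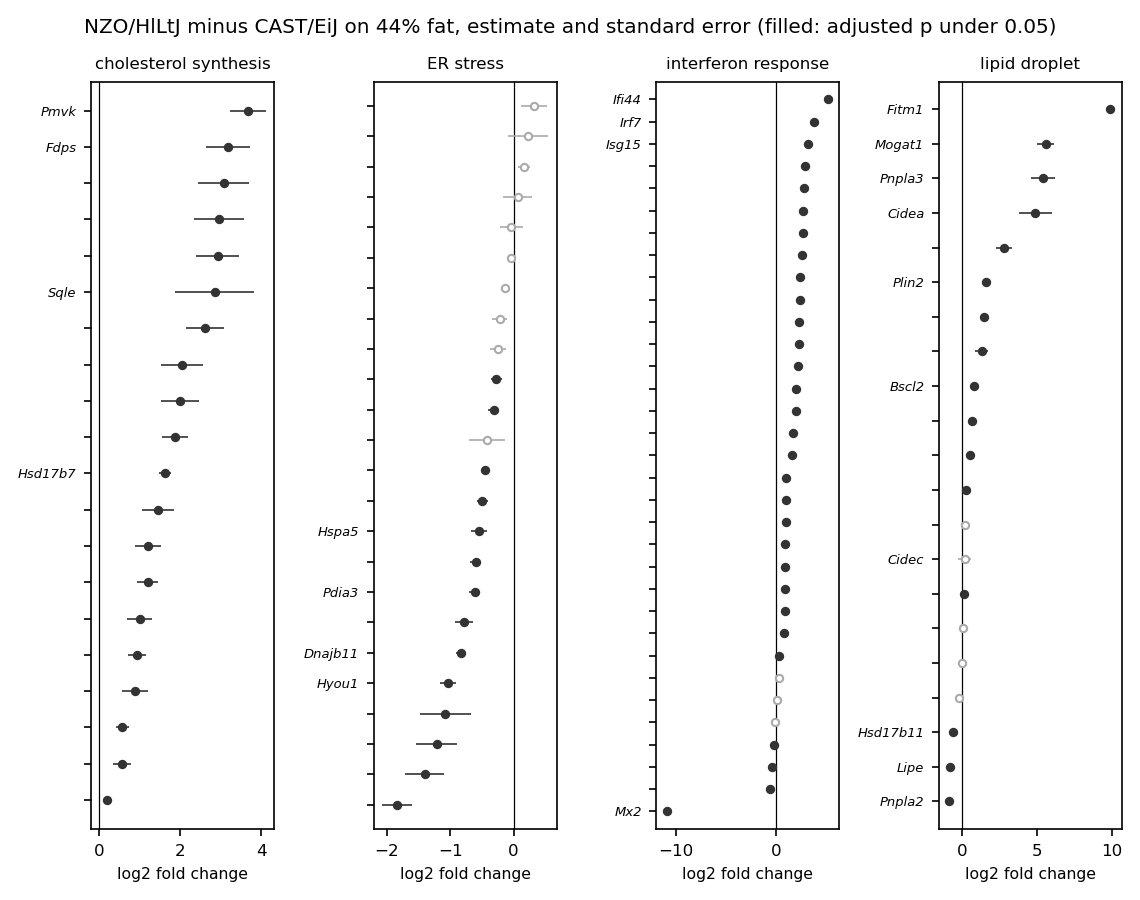
Log2 fold change, NZO/HlLtJ minus CAST/EiJ on 44% fat, of every tested member of 4 gene lists (labelled where the text names the gene), with its standard error (bars) and filled points for an adjusted p under 0.05. All 20 cholesterol synthesis genes lie to the right of 0, no endoplasmic reticulum stress gene to the right of 0 is filled, and interferon genes lie to the right apart from Mx2 and a few small changes.

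Of 23 genes of glycolysis and fructose metabolism 10 were higher in NZO and 3 lower (5 lower without CAST female 3). Tkfc, which phosphorylates glyceraldehyde from fructose, was at 501 to 967 CPM (median 652) in NZO and at 237 to 342 CPM (median 269) in CAST (log2 fold change 1.32, SE 0.12, adjusted p = 5.58e-08). Hk2, a hexokinase that is scarce in normal hepatocytes, was at 1.03 to 3.57 CPM (median 2.26) and at 0.22 to 1.02 CPM (median 0.492) (log2 fold change 2.14, SE 0.24, adjusted p = 7.52e-07). Of 18 genes of gluconeogenesis and glycogen 7 were higher and 4 lower, and 2 were lower without NZO female 2, 3 or 4. Pcx, pyruvate carboxylase, was higher at 852 to 1151 CPM (median 1028) against 570.1 to 694 CPM (median 633) (log2 fold change 0.67, SE 0.081, adjusted p = 1.61e-06). Pck1, the cytosolic phosphoenolpyruvate carboxykinase that insulin represses, was lower, at 702 to 4301 CPM (median 1567) against 1924 to 3815 CPM (median 3431) (log2 fold change -0.84, SE 0.26, adjusted p = 0.0111). Its log2 fold change was -1.52 in females and -0.17 in males, with a difference of -1.35, SE 0.37, adjusted p = 0.0427, and NZO females and males had means of 1100 and 3102 CPM. The Pck1 call was lost with a score of clock genes per library as covariate (log2 fold change -0.52, adjusted p = 0.168). G6pc, glucose-6-phosphatase, did not pass the test, at 249.6 to 1586 CPM (median 626) and 435 to 1102 CPM (median 654) (log2 fold change 0.089, SE 0.27, adjusted p = 0.79).

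Genes of insulin signalling leaned lower in NZO, with 3 of 22 called higher and 11 lower, a median of -0.386, and medians of -0.188, -0.334 and -0.334 in runs 1, 2 and 3. Enpp1, which binds and inhibits the insulin receptor, was lower without overlap, at 17.1 to 25.5 CPM (median 21.9) against 29.5 to 43 CPM (median 35.6) (log2 fold change -0.72, SE 0.051, adjusted p = 1.8e-09). Ptpn1, the phosphatase that switches the insulin receptor off, was higher without overlap, at 25 to 31.1 CPM (median 27.5) against 19.8 to 22.5 CPM (median 20.2) (log2 fold change 0.43, SE 0.052, adjusted p = 1.48e-06). Igfbp2, a binding protein of insulin-like growth factors, was at 20.3 to 91.7 CPM (median 35.7) in NZO and at 339.9 to 629 CPM (median 419) in CAST (log2 fold change -3.36, SE 0.30, adjusted p = 1.79e-07). The highest NZO library was below the lowest CAST library, and within runs 1, 2 and 3 the log2 fold change was -3.46, -2.81 and -3.77. Igfbp3 was lower without overlap (log2 fold change -0.91, SE 0.12, adjusted p = 3.45e-06). Igfbp1, which insulin represses, ranged widely in both strains, at 6.12 to 236 CPM (median 26.8) and 16.4 to 376 CPM (median 121), and did not pass the test (log2 fold change -1.39, SE 0.64, adjusted p = 0.0738). It did so without NZO male 1 (adjusted p = 0.0167) or without CAST female 1 (adjusted p = 0.0458).

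Lepr, the leptin receptor, was at 4.41 to 16.8 CPM (median 10.4) in NZO and at 6.88 to 183 CPM (median 65) in CAST (log2 fold change -2.49, SE 0.51, adjusted p = 8.1e-04). Leptin is the fat-cell hormone that limits food intake, and the liver makes a soluble form of its receptor. The CAST females stood apart with a mean of 154 CPM, against 21.4 in CAST males, 11.9 in NZO females and 9.13 in NZO males, and the female minus male difference of the log2 fold changes was -2.47, SE 0.66, adjusted p = 0.0427. Other genes that crosses with NZO have linked to obesity or diabetes gave smaller differences. Zfp69 was lower in NZO, at 0.984 to 1.51 CPM (median 1.1) against 0.855 to 2.52 CPM (median 1.92) (log2 fold change -0.58, SE 0.20, adjusted p = 0.0211), a call lost without CAST female 1 (adjusted p = 0.0532). Tbc1d1, which controls glucose transporter traffic, was at 3.48 to 7.1 CPM (median 5.69) and 5.25 to 8.38 CPM (median 6.67) (log2 fold change -0.25, SE 0.13, adjusted p = 0.0945). Pctp, the phosphatidylcholine transfer protein, was higher, at 69.1 to 162 CPM (median 115) against 24.9 to 107 CPM (median 54.3) (log2 fold change 1.19, SE 0.24, adjusted p = 6.43e-04). Abcg1, a sterol exporter, missed the threshold (log2 fold change 0.28, SE 0.12, adjusted p = 0.0579), with log2 fold changes of -0.086 in females and 0.65 in males. Nnt, the nicotinamide nucleotide transhydrogenase that is partly deleted in C57BL/6J, was higher in NZO, at 118 to 157 CPM (median 151) against 77.7 to 129 CPM (median 99.8) (log2 fold change 0.58, SE 0.077, adjusted p = 4.39e-06).

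Chaperones and sensors of endoplasmic reticulum stress were lower in NZO: 14 of 24 were called lower and none higher, with a median log2 fold change of -0.438. Of the 24 members 6 lay lower without overlap, against 10.7% of all genes tested. The median of their summed level was 5260 CPM in NZO, 7300 CPM in CAST and 5160 CPM in C57BL/6J on this diet. Hyou1, a chaperone of the endoplasmic reticulum, was at 210.5 to 325 CPM (median 242) in NZO and at 358 to 740.2 CPM (median 523) in CAST (log2 fold change -1.04, SE 0.13, adjusted p = 3.08e-06). Dnajb11, a co-chaperone, was at 74.9 to 101 CPM (median 85.4) and at 126 to 190.4 CPM (median 155) (log2 fold change -0.83, SE 0.084, adjusted p = 1.6e-07). The disulfide isomerase Pdia3 was at 297 to 399 CPM (median 344) and at 446 to 662 CPM (median 534) (log2 fold change -0.62, SE 0.082, adjusted p = 4.79e-06). These 3 did not overlap between the strains. Hspa5, the master chaperone BiP, was named after its values were seen, at 813 to 1175 CPM (median 938) against 1060 to 2150 CPM (median 1411) (log2 fold change -0.55, SE 0.12, adjusted p = 9.33e-04). The list's median was -0.386, -0.592 and -0.263 in runs 1, 2 and 3. On 10% fat only 2 members were higher and 2 lower, with a median of -0.0669, but no member passed the test of a diet-dependent strain difference. Genes of this list are known targets of an endoplasmic reticulum stress element, and the letters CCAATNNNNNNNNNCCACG, searched on both strands in the 250 bases before the start, stood in the promoters of 7 of 21 members found in RefSeq's GRCm38.p6 table (33.3%), against 19 of 10759 tested genes (0.177%). The Hspa5 promoter at chr2:34771840-34772089, plus strand, is shown because it holds this element, which is in capitals:
Hspa5: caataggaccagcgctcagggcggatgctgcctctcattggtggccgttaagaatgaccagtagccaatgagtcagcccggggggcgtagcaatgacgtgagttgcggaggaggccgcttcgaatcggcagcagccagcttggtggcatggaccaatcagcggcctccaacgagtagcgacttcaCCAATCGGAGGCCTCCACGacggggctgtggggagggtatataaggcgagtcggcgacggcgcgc

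Respiratory chain genes of the nucleus were also lower more often than higher, 14 of 28 against 3, though by little (median log2 fold change -0.181). Cycs, cytochrome c, was the largest, at 50.6 to 68.1 CPM (median 57.4) in NZO and at 139.8 to 198 CPM (median 179.6) in CAST (log2 fold change -1.57, SE 0.063, adjusted p = 6.85e-13). Ndufv2 of complex I was lower without overlap, at 65.6 to 76.8 CPM (median 70.2) against 96.1 to 113 CPM (median 104) (log2 fold change -0.55, SE 0.049, adjusted p = 3.52e-08). Of 13 genes encoded in the mitochondrial genome 11 were lower and 1 higher. mt-Nd2 was at 1870 to 2663 CPM (median 2339) in NZO and at 4487 to 6768 CPM (median 5472) in CAST (log2 fold change -1.27, SE 0.094, adjusted p = 2.95e-09). The higher one, mt-Co2, was at 1897 to 2796 CPM (median 2236) in NZO and at only 5.6 to 11.5 CPM (median 8.11) in CAST. The annotated pseudogene Gm13341 at chr2:22587291-22587962, named after its values were seen, was at no more than 0.0895 CPM in NZO and at 892 to 2690 CPM (median 1139) in CAST. Whether reads of mt-Co2 were counted at such a copy in CAST was not tested, and the mt-Co2 difference is given as uncertain.

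Interferon response genes were mostly higher in NZO: 26 of 33 were called higher and 4 lower, and the median log2 fold change was 1.54. Of the 33 members 21 lay higher without overlap, against 12% of all genes tested. Interferon response genes encode antiviral proteins and are switched on by type I interferon. Irf7, the transcription factor that drives further interferon, was at 21.6 to 40.2 CPM (median 31) in NZO and at 1.45 to 3.7 CPM (median 2.35) in CAST (log2 fold change 3.75, SE 0.10, adjusted p = 3.58e-15). Isg15, a ubiquitin-like protein, was at 3.27 to 7.87 CPM (median 5.23) and at 0.265 to 0.894 CPM (median 0.568) (log2 fold change 3.23, SE 0.18, adjusted p = 6.35e-11). Ifi44, named after its values were seen, had the largest rise of the list (log2 fold change 5.17, SE 0.31, adjusted p = 2.8e-10). In the other direction Mx2, annotated as a pseudogene, was at no more than 0.0502 CPM in NZO and at 25.5 to 45.2 CPM (median 41) in CAST (log2 fold change -10.92, SE 0.23, adjusted p = 7.72e-17). C57BL/6J lay with NZO for Irf7 and Isg15, at medians of 35.6 and 5.69 CPM. The list's median was 1.74, 1.32 and 1.22 in runs 1, 2 and 3, and 24, 21 and 21 members were called higher in the single runs.

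The related families of interferon-induced GTPases, which attack intracellular microbes, had 13 of 16 members higher and none lower. Iigp1 was at 202 to 354 CPM (median 280.3) in NZO and at 0 to 0.226 CPM (median 0.0551) in CAST (log2 fold change 11.68, SE 0.36, adjusted p = 5.63e-13). Gbp10 was at 12.8 to 63.7 CPM (median 33.5) in NZO and at no more than 0.103 CPM in CAST, and Gbp6 had no count in CAST, at least 761-fold lower than its 2.37 to 13.8 CPM in NZO. Gbp7 was present in both strains, at 10.8 to 35.3 CPM (median 25.1) and at 2.36 to 6.39 CPM (median 4.35) (log2 fold change 2.47, SE 0.13, adjusted p = 4.03e-11). Members of these families are close copies, so reads may be shared among them. Genes of MHC class I and peptide loading, which display peptides to T cells, had 17 of 21 members higher and 2 lower (1 without CAST male 1 or NZO male 4). H2-T22 was at 67.5 to 106 CPM (median 85.2) in NZO and at 7.11 to 9.28 CPM (median 8.12) in CAST (log2 fold change 3.40, SE 0.094, adjusted p = 3.35e-15). The liver-secreted H2-Q10 was at 1854 to 3449 CPM (median 3356) and at 559.7 to 749.6 CPM (median 618) (log2 fold change 2.31, SE 0.11, adjusted p = 7.36e-12). H2-T10 went the other way (log2 fold change -2.36, SE 0.11, adjusted p = 6.87e-12). These genes are among the most variable between mouse strains, so the match of reads to the reference may differ between NZO and CAST, which was not tested.

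The promoters of Isg15 and Gbp7 are shown because they carry the interferon-stimulated response element, in capitals, from RefSeq's GRCm38.p6 table (250 bases before the start, minus strand at chr4:156200819-156201068 for Isg15 and plus strand at chr3:142530086-142530335 for Gbp7):
Isg15: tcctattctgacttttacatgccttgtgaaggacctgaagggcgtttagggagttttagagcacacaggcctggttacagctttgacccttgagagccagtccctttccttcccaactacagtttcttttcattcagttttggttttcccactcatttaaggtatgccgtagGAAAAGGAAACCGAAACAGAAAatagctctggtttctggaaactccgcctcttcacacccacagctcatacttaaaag
Gbp7: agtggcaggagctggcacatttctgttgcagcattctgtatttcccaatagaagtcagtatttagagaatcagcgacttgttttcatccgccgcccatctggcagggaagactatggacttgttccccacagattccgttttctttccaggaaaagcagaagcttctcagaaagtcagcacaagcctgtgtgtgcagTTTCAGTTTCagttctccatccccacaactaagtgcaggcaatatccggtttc
The letters GAAANNGAAA, on either strand, stood in the promoters of 13 of 23 interferon response genes found in the table (56.5%) and of 9 of 9 GTPases, against 3 of 17 MHC class I genes (17.6%) and 348 of 10759 tested genes (3.23%). Overlapping matches were counted, and Isg15 holds 3. The letters TCACNCCAC of a sterol regulatory element were rarer, in 1 of 15 promoters of cholesterol synthesis (6.67%) and in 1 of 17 of fatty acid synthesis (5.88%), against 147 of 10759 (1.37%). The fatty acid synthesis gene with this match was Mlxipl, the member of its list that was lower in NZO.

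Markers of Kupffer cells and macrophages moved with the interferon genes. Of 17 markers 14 were higher in NZO and none lower, with a median log2 fold change of 0.981 and a summed level of 248 to 539 CPM in NZO against 167 to 435 CPM in CAST. Adgre1, the macrophage marker F4/80, was at 9.95 to 26.2 CPM (median 17.6) in NZO and at 3.26 to 9.66 CPM (median 5.33) in CAST (log2 fold change 1.68, SE 0.16, adjusted p = 9.54e-08). Csf1r, the receptor for the macrophage growth factor, was at 33.4 to 67 CPM (median 49.2) and at 13.7 to 36 CPM (median 22.4) (log2 fold change 1.09, SE 0.12, adjusted p = 6.94e-07). Clec4f and Marco, which mark resident Kupffer cells, were named after their values were seen and did not pass the test, with log2 fold changes of -0.035 and -0.33. The markers' medians were 1.18, 0.915 and 0.305 in runs 1, 2 and 3, and their part in the interferon and MHC differences was not tested. Markers of T and NK cells were near the limit of detection, summing to 2.17 to 5.6 CPM in NZO and 1.58 to 8.54 CPM in CAST. Of 13 markers 5 were tested, 4 called higher and 1 lower. The number higher was 7 without any one CAST library or without NZO male 1, 3 or 4, and none with at least 1 CPM required in at least 4 libraries. With a library left out the expression filter asks for fewer libraries, so more low markers can be tested. Cd3e, of the T cell receptor complex, was at 0.313 to 0.681 CPM (median 0.477) in NZO and at 0 to 0.146 CPM (median 0.0389) in CAST (log2 fold change 3.20, SE 0.42, adjusted p = 4.17e-06). Cd4, the coreceptor of helper T cells, was lower in NZO, at 0.435 to 1.46 CPM (median 0.709) against 0.907 to 7.88 CPM (median 3.98) (log2 fold change -2.20, SE 0.30, adjusted p = 7.45e-06).

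Cell cycle genes were higher in NZO in 12 of 20 cases and lower in none, and their sum was 240 to 674 CPM in NZO against 69.5 to 124 CPM in CAST, without overlap. Without the 2 members Tubb2a and Cdkn1a, left out after their values were seen, the sums overlapped, at 55.6 to 182 CPM in NZO and 46.4 to 103 CPM in CAST. Cdkn1a, the cell cycle inhibitor p21, was at 6.96 to 142 CPM (median 43.4) in NZO and at 1.27 to 6.14 CPM (median 2.29) in CAST (log2 fold change 4.25, SE 0.56, adjusted p = 1.67e-05). Aurka, a mitotic kinase, was at 1.61 to 5.23 CPM (median 2.3) and 0.701 to 1.35 CPM (median 0.951) (log2 fold change 1.39, SE 0.22, adjusted p = 2.62e-05). Tubb2a, a tubulin and the most abundant of these, was at 163 to 450.1 CPM (median 237) and 16.7 to 41.3 CPM (median 21.3) (log2 fold change 3.27, SE 0.25, adjusted p = 3.44e-08). Hepatocyte markers had 2 of 10 higher and 3 lower, beside 30.9% and 28.8% of all genes tested. Stellate cell and collagen genes had 5 of 16 higher and 5 lower, close to these shares over all genes. Within them Col1a1, the main fibrillar collagen, was at 7.9 to 15.8 CPM (median 9.83) in NZO and at 3.03 to 5.85 CPM (median 4.56) in CAST (log2 fold change 1.30, SE 0.18, adjusted p = 8.94e-06). Of 2 matrix proteoglycans Lum was higher too (log2 fold change 1.83, SE 0.18, adjusted p = 8.73e-08) and Dcn was lower (log2 fold change -0.53, SE 0.071, adjusted p = 5.8e-06). Liver endothelium had 6 of 11 markers higher and 2 lower (1 without CAST female 4), with Vwf, a clotting factor of the vessel wall, lower without overlap (log2 fold change -1.23, SE 0.10, adjusted p = 1.41e-08) and Cdh5, the endothelial cadherin, higher (log2 fold change 0.51, SE 0.10, adjusted p = 2.98e-04). The adipocyte markers summed to 1160 to 2110 CPM in NZO and to 31.4 to 482 CPM in CAST. Of the 2 tested Car3, which liver also makes and which had medians of 1743 and 196 CPM, was higher and Fabp4 lower, while Adipoq, Plin1 and Cfd were under 0.6 CPM in all 16 libraries and were not tested. Markers of skeletal muscle summed to at most 3.45 CPM. Markers of pancreatic acinar cells summed to 2.41 to 12.3 CPM in NZO and to 0.67 to 530 CPM in CAST. Of 6 tested 5 were called lower in NZO, with a median log2 fold change of -5.17, which was -6.66 in females and 0.0863 in males. These calls rest on few libraries. With CAST female 2 left out 1 was called and the median was -2.48, and without NZO female 1, 2, 3 or 4 the number called was 2, 2, 3 and 2. None was called lower in the fit of all 47 libraries or with the identifier run as covariate and 1 with DESeq2, and the median of the summed level was higher in NZO (4.08 CPM) than in CAST (2.54 CPM). Cpa1, a pancreatic carboxypeptidase, had a CAST median of 0.182 CPM and a highest value of 47.1 CPM (log2 fold change -5.11, SE 1.78, adjusted p = 0.0232), and its adjusted p was 0.145 without CAST female 2 and 0.0595 to 0.062 without any of 3 NZO females.

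Among iron genes the hepcidins differed most. Hamp encodes hepcidin, the hormone that blocks iron release, and Hamp2 is its mouse duplicate. Hamp2 was at 44.5 to 744 CPM (median 388) in NZO and had no count in any CAST library, at least 39010-fold higher in NZO, with C57BL/6J at 4.46 to 288 CPM. Hamp was at 17.3 to 162 CPM (median 50.2) in NZO and at 0 to 1.12 CPM (median 0) in CAST (log2 fold change 8.73, SE 0.83, adjusted p = 6.4e-07). Both were thus nearly or fully absent from the counts of CAST, and since the 2 genes are close copies, reads may be shared between them. The 21 iron handling genes, the hepcidins included, were 5 higher and 6 lower, beside 30.9% and 28.8% of all genes tested. Steap3, an iron reductase, was at 16.6 to 30 CPM (median 21.5) in NZO and at 2.22 to 3.47 CPM (median 2.89) in CAST (log2 fold change 2.97, SE 0.13, adjusted p = 2.13e-12). Steap4, of the same family but listed with the acute phase genes, was 2.52-fold higher (adjusted p = 1.5e-09). Of 7 erythroid markers 2 were higher and 1 lower. Alas2, which starts heme synthesis in red cell precursors, was highest in NZO males, with a mean of 194 CPM against 34.4 in NZO females, 17.3 in CAST males and 23 in CAST females (female minus male difference of the log2 fold changes -2.91, SE 0.30, adjusted p = 7.61e-05). C57BL/6J on 44% fat was at 109 to 132 CPM in males and at 22.1 to 25.9 CPM in females. Males were thus above females in NZO and C57BL/6J but not in CAST.

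Among coagulation and complement genes, made by the liver for the plasma, 19 of 35 were lower in NZO and 5 higher. Their median log2 fold change was -0.222. On 10% fat 8 were lower and 10 higher, beside 25.3% and 26.2% of all genes tested on that diet. No member passed the test of a diet-dependent strain difference. F7, the clotting factor that starts the extrinsic pathway, was at 51.6 to 91.8 CPM (median 62.3) against 85.1 to 198 CPM (median 138) (log2 fold change -1.01, SE 0.089, adjusted p = 3.01e-08). F12, of the contact pathway, was at 194 to 334 CPM (median 244) against 394 to 523 CPM (median 434) (log2 fold change -0.81, SE 0.074, adjusted p = 4.9e-08). Mbl1, a mannose-binding lectin, was at 83.8 to 123 CPM (median 105) against 175 to 235 CPM (median 194) (log2 fold change -0.94, SE 0.069, adjusted p = 2.25e-09). F12 and Mbl1 did not overlap. Apolipoproteins had 7 of 24 higher and 7 lower, close to the shares over all genes. Apoa1, the main protein of high-density lipoprotein, was at 2505 to 3905 CPM (median 3406) in NZO and at 4307 to 8225 CPM (median 6259) in CAST (log2 fold change -0.87, SE 0.14, adjusted p = 3.47e-05). Apoa4, which rises in fatty liver, was at 1048 to 2436 CPM (median 1388) and at 366 to 941 CPM (median 575) (log2 fold change 1.51, SE 0.22, adjusted p = 2.5e-05). Both were without overlap and in opposite directions. Hepatokines, hormones of the liver, had 6 of 18 higher and 5 lower, close to the shares over all genes, and a median of 0.0418. Among them Fetub was at 272 to 427 CPM (median 311) in NZO and at 959.5 to 1487 CPM (median 1052) in CAST (log2 fold change -1.77, SE 0.10, adjusted p = 1.35e-10), without overlap. Serpina1a and Serpina1c, alpha-1-antitrypsin genes, were higher (log2 fold change 4.75, SE 0.13, adjusted p = 3.35e-15, and log2 fold change 3.68, SE 0.16, adjusted p = 3.86e-12), while 10 of the 18 genes of their families were lower, and reads may be shared within the family.

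Of 25 acute phase genes 9 were higher and 5 lower, beside 30.9% and 28.8% of all genes tested. Their strain difference depended on sex: the median log2 fold change was -0.224 in females and 1.22 in males. The test of that difference was passed by 10 of the 25, against 6.99% of all genes. Saa1, serum amyloid A, averaged 25.1 and 27.4 CPM in NZO females and males and 23.8 and 1.5 CPM in CAST females and males. It did not pass the test over both sexes (log2 fold change 1.92, SE 0.82, adjusted p = 0.0562), and did without any one of 5 female libraries, with adjusted p of 0.0113 to 0.0492. Saa4, a form that is made constitutively, was higher without overlap, at 147 to 418 CPM (median 242) against 24.3 to 68.7 CPM (median 55) (log2 fold change 2.32, SE 0.16, adjusted p = 3.19e-09). Over all 25 genes the median log2 fold change was 0.737, and it was 0.452, 1.28 and -0.344 in runs 1, 2 and 3 and 0.162 without CAST male 2.

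Genes of bile acid synthesis and transport had 9 of 26 higher and 7 lower, close to the shares over all genes. Cyp7a1, the rate-limiting enzyme of bile acid synthesis, was at 81 to 210.1 CPM (median 134) in NZO and at 160.4 to 519 CPM (median 286) in CAST (log2 fold change -1.07, SE 0.26, adjusted p = 0.00215). Cyp7b1, of the alternative pathway, was at 20.6 to 309 CPM (median 56.6) and at 537 to 1888 CPM (median 1136) (log2 fold change -3.78, SE 0.33, adjusted p = 1.24e-07). Both were lower in NZO, as was Abcb11, the bile salt export pump, at 408 to 550.5 CPM (median 477) against 822 to 1113 CPM (median 947) (log2 fold change -0.98, SE 0.078, adjusted p = 7.75e-09). Cyp8b1, which makes cholic acid, was higher (log2 fold change 0.63, SE 0.16, adjusted p = 0.00289). Slc10a2, the bile acid transporter of ileum and bile ducts, was at 20.8 to 43.2 CPM (median 31.6) in NZO and at 0.0795 to 0.795 CPM (median 0.419) in CAST (log2 fold change 6.19, SE 0.24, adjusted p = 3.3e-12), without overlap.

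Cytochrome P450 genes of families 1 to 3 oxidise drugs, steroids and other foreign compounds. Of 43 tested 13 were higher, close to the share over all genes, and 19 lower. The test of a sex-dependent strain difference was passed by 22 of the 43, against 6.99% of all genes. The summed level of the list was 11600 to 20700 CPM in NZO against 18800 to 31900 CPM in CAST. Cyp2c44 was at 27.8 to 49.1 CPM (median 34.5) in NZO and at 458 to 684 CPM (median 572) in CAST (log2 fold change -4.01, SE 0.14, adjusted p = 7.98e-14). Cyp3a25 was at 204 to 376 CPM (median 247) and at 1821 to 3094 CPM (median 2576) (log2 fold change -3.18, SE 0.17, adjusted p = 5.5e-11). Both were lower in NZO without overlap. Cyp2b13, a female-biased enzyme, had no count in CAST and means of 220.2 CPM in NZO females and 0.269 CPM in NZO males, at least 11120-fold higher over both sexes. Its neighbour Cyp2b9 had means of 702 and 37.1 CPM in NZO females and males and of 108 and 0.0118 CPM in CAST females and males. Cyp2b10, which drugs induce, had log2 fold changes of -1.56 in females and 3.41 in males (difference -4.97, SE 0.98, adjusted p = 0.00822). Ephx1, epoxide hydrolase, was higher (log2 fold change 0.60, SE 0.13, adjusted p = 5.0e-04).

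Major urinary proteins, pheromone carriers that growth hormone drives in male liver, were lower in NZO in 11 of 19 cases and higher in 6. Mup17 was at 2.55 to 293 CPM (median 16.4) in NZO and at 334 to 28330 CPM (median 14820) in CAST (log2 fold change -7.65, SE 0.66, adjusted p = 1.73e-07), with means of 1157 CPM in CAST females and 28000 CPM in CAST males. Mup20, the male pheromone darcin, went the other way, at 3.82 to 301 CPM (median 83.3) in NZO and at no more than 0.0572 CPM in CAST (log2 fold change 12.20, SE 0.48, adjusted p = 1.22e-11). The summed level of the 19 genes was 2100 to 21500 CPM in NZO and 4690 to 62300 CPM in CAST. These genes are near-identical and differ in copy number between strains, so how reads were divided among them is uncertain. Of 29 conjugating enzymes, the sulfotransferases and glucuronosyltransferases, 13 were higher and 6 lower, beside 30.9% and 28.8% of all genes tested. Their strain difference depended on sex in 14 of the 29, against 6.99% of all genes. Ugt3a2, a glucosyltransferase of the glucuronosyltransferase family, was higher without overlap (log2 fold change 3.71, SE 0.11, adjusted p = 9.58e-15). Ugt1a6a, a glucuronosyltransferase, was lower without overlap (log2 fold change -1.37, SE 0.068, adjusted p = 1.19e-11). The glutathione transferase Gstt1 was at 152 to 253 CPM (median 196) against 3.2 to 17.7 CPM (median 7.83) (log2 fold change 4.64, SE 0.26, adjusted p = 8.89e-10), and Gstm2 of another class of that family was at 3.8 to 9.77 CPM (median 5.21) against 54.6 to 155 CPM (median 89.6) (log2 fold change -4.03, SE 0.29, adjusted p = 2.01e-08). Of 18 steroid-metabolising enzymes 10 were lower and 5 higher, and Hsd17b2, which inactivates estradiol and testosterone, was at 72.2 to 162 CPM (median 97.3) against 328 to 416 CPM (median 384) (log2 fold change -1.91, SE 0.13, adjusted p = 6.79e-10).

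The strain difference depended on sex in 1074 genes (6.99%). The female minus male difference of the log2 fold changes was positive in 546 and negative in 528. This sign does not tell in which sex the strain difference was larger in size. For 108 of the 1074 genes the strain difference was called in each sex with opposite signs. Cyp4a14, an omega-hydroxylase of fatty acids and target of PPAR-alpha, had the largest interaction of the named genes: CAST males averaged 0.201 CPM, against 227 in CAST females, 646 in NZO females and 823 in NZO males (female minus male difference of the log2 fold changes -10.48, SE 0.75, adjusted p = 4.33e-06). Its close relative Cyp4a31 was at 0.347 CPM in CAST males and 90.1 in CAST females (-7.42, SE 0.52, adjusted p = 4.33e-06). CAST males were thus the group that stood low for both. Averaged over the sexes Cyp4a14 was higher in NZO (log2 fold change 5.79, SE 2.01, adjusted p = 0.0232), a call lost without CAST male 2, 3 or 4 (adjusted p = 0.0528, 0.05 and 0.0538). Fras1, a basement membrane protein, had means of 20.2 and 8.59 CPM in NZO females and males and of 0.945 and 17.8 CPM in CAST females and males, so that the strains had opposite sex differences (5.43, SE 0.34, adjusted p = 1.89e-07). Slco2a1, a prostaglandin transporter, was highest in CAST males, at a mean of 106 CPM against 37.1 in CAST females and 49.8 and 28.3 in NZO females and males (2.32, SE 0.19, adjusted p = 2.32e-06). Sntg2, a syntrophin, was lowest in CAST males (-2.40, SE 0.23, adjusted p = 7.79e-06), and Cobl and Echdc2 were highest there, at means of 67.2 and 166 CPM (1.82, SE 0.17, adjusted p = 7.79e-06, and 1.57, SE 0.14, adjusted p = 4.33e-06). BC089597, by contrast, was lowest in NZO males, at 2.91 CPM against 77.6 in NZO females (4.19, SE 0.33, adjusted p = 4.33e-06). The number of sex-dependent genes moved with single libraries: it was 655 without CAST male 2, 683 without NZO male 4 and 1304 without CAST female 1, and 878 with the identifier run as a covariate.

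**Figure D4:**
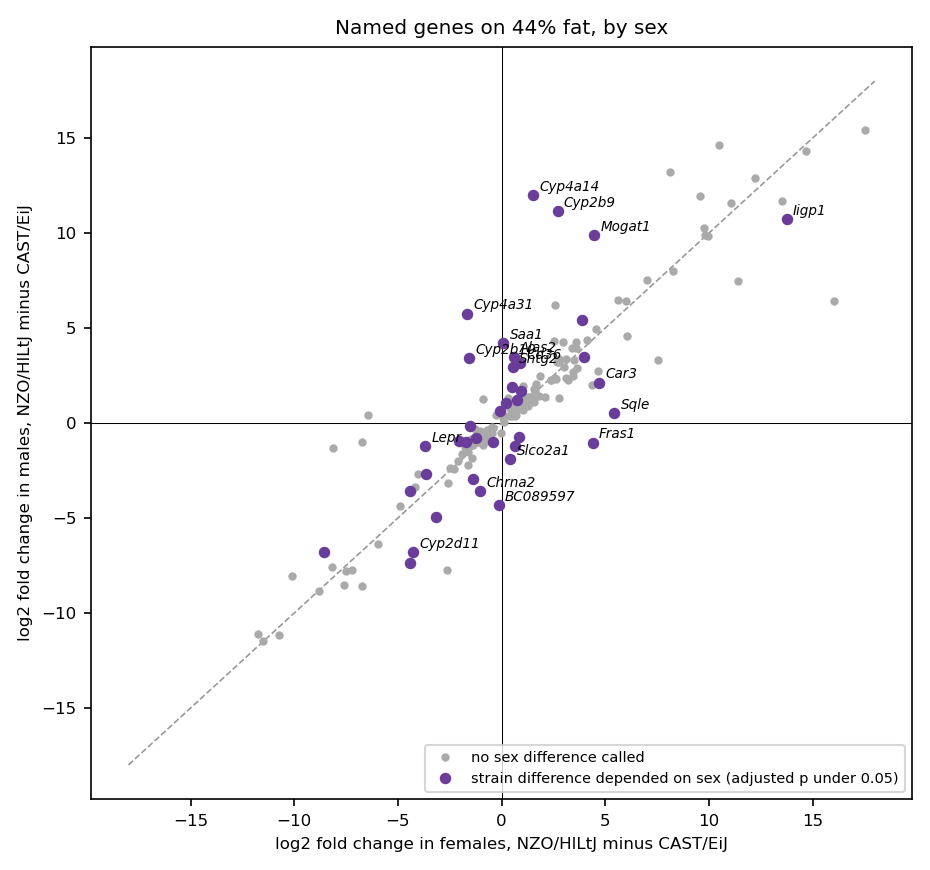
Log2 fold change, NZO/HlLtJ minus CAST/EiJ on 44% fat, in males (vertical) against females (horizontal) for the named genes, with the line of equality dashed and purple points for genes whose strain difference depended on sex (adjusted p under 0.05). Most points follow the dashed line. Cyp4a14, Cyp2b9 and Mogat1 lie above it, with CAST/EiJ males at means of 0.201 CPM or less, while Sqle and Fras1 lie below it.

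On the 10% fat diet the same contrast, from other libraries, called 8019 of 15570 genes (51.5%), 4083 (26.2%) higher in NZO and 3936 (25.3%) lower. Of 15190 genes tested on both diets 6824 were called on both in one direction, which is 75% of the 9101 called on 44% fat and 87% of the 7846 called on 10% fat, and 2 were called in opposite directions. Across these genes, which are not independent replicates, the log2 fold changes on the 2 diets had a Pearson correlation of 0.958 and a Spearman correlation of 0.902. The median size of the log2 fold change was 0.376 on 44% fat and 0.34 on 10% fat. For interferon response genes the counts on 10% fat were 25 higher and 3 lower, with a median of 1.48. Cholesterol synthesis had 16 of 20 higher and none lower, with a median of 1.02 against 1.74 on 44% fat, and fatty acid synthesis had 9 higher and 1 lower, with a median of 0.542 against 1.36. Fasn, for example, had a log2 fold change of 0.99 (adjusted p = 0.0889) on 10% fat and Pnpla3 one of 3.71 (adjusted p = 0.00124), but no gene of either synthesis list passed the test of a diet-dependent strain difference.

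**Figure D5:**
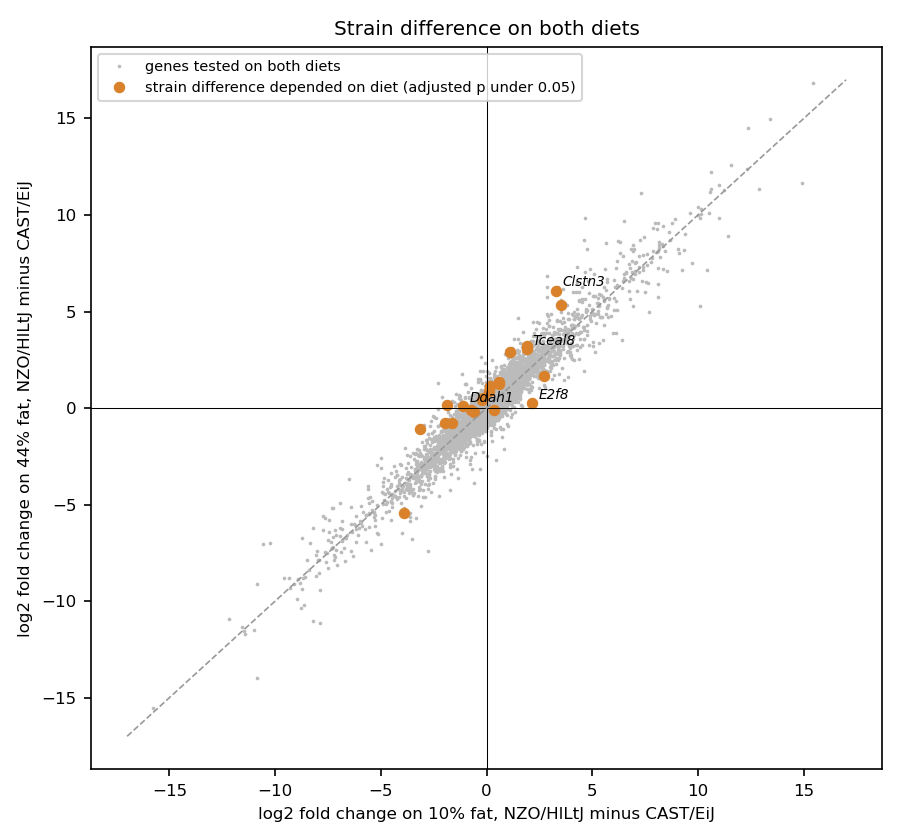
Log2 fold change, NZO/HlLtJ minus CAST/EiJ, on 44% fat (vertical) against 10% fat (horizontal) for the 15190 genes tested on both diets, with the line of equality dashed. Orange points are genes whose strain difference depended on diet (adjusted p under 0.05), and even these lie mostly in the same quadrant on both diets.

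The test of whether the strain difference depended on diet called 22 of 16153 genes (0.136%), and 1836 genes had an unadjusted p under 0.05. Zak, a stress kinase, had mean CPM of 18.8 in NZO and 8.61 in CAST on 44% fat and of 12.2 in NZO and 10.7 in CAST on 10% fat, and its log2 fold change was higher by 0.96, SE 0.15, adjusted p = 0.00439. Clstn3, a membrane protein known to limit or favour lipid storage in fat cells according to its form, had means of 8.86 in NZO and 0.125 in CAST on 44% fat and of 3.26 in NZO and 0.273 in CAST on 10% fat (difference of the log2 fold changes 2.74, SE 0.50, adjusted p = 0.0152). Both differences were thus larger on 44% fat, where the NZO means were higher and the CAST means lower than on 10% fat. Ccng1, a target of p53, had means of 52.1 in NZO and 22.1 in CAST on 44% fat and of 33.8 in NZO and 22.5 in CAST on 10% fat (0.65, SE 0.12, adjusted p = 0.0126). Ddah1, which breaks down methylated arginine, differed on 10% fat (log2 fold change -1.12) and not beyond its error on 44% fat (0.088), with a difference of 1.27, SE 0.23, adjusted p = 0.0147. E2f8, a repressor of the cell cycle, was the reverse of Zak, with a log2 fold change of 2.15 on 10% fat and 0.24 on 44% fat (-1.88, SE 0.33, adjusted p = 0.0123). Tceal8 was higher in NZO on both diets, at 1.89 on 10% fat and 3.06 on 44% fat (1.17, SE 0.18, adjusted p = 0.00439). Serpinb9, an inhibitor of granzyme B, was higher on 44% fat alone (0.77, SE 0.13, adjusted p = 0.00643). The count of 22 depends on single libraries, with 9 genes without CAST male 1 of the 10% fat diet and 95 without NZO male 4 of that diet, and DESeq2 called 193.

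Other genes of the named set were called in both directions. Smpd3, a sphingomyelinase, was at 1.04 to 10.6 CPM (median 5.4) in NZO and at 11.3 to 38.8 CPM (median 25) in CAST (log2 fold change -2.05, SE 0.27, adjusted p = 1.12e-05). Pls1, a plastin of intestinal microvilli, was at 1.52 to 4.12 CPM (median 2.61) and at 9.39 to 24 CPM (median 13.8) (log2 fold change -2.43, SE 0.20, adjusted p = 1.76e-08). Both were lower in NZO without overlap. Chrna2, a nicotinic receptor subunit, was lower as well (log2 fold change -2.33, SE 0.42, adjusted p = 2.41e-04), mostly through CAST males at a mean of 102 CPM against 12.1 in CAST females. Car3, a carbonic anhydrase abundant in adipocytes and in liver of males, was at 1154 to 2105 CPM (median 1743) in NZO and at 13.2 to 466 CPM (median 196) in CAST (log2 fold change 3.41, SE 0.53, adjusted p = 6.89e-05), with a mean of 64.1 CPM in CAST females. Cyp2d11 was the reverse, at 0.0252 to 0.376 CPM (median 0.176) in NZO and at 3.33 to 20.3 CPM (median 11.3) in CAST, and its strain difference was larger in males (2.51, SE 0.48, adjusted p = 0.00465).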

How the data were processed

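Liver RNA was selected for polyadenylated molecules, made into KAPA mRNA HyperPrep libraries with ERCC spike-ins and sequenced as 100 bp read pairs on a NovaSeq 6000, per the labels' protocols. The authors deposited expected counts per gene, which are estimates not scaled between libraries (20.3% of values are not whole), and, for the same 47 libraries, log2 values after variance stabilization. The GRCm38 build and DESeq2 are named in the submitters' processing notes; no source used here names the aligner, counting tool, strand setting or annotation release. The members of the comparison, the 46 gene lists and the tests were chosen with earlier results of these data known.

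The expected counts were rounded and tested with edgeR 4.0.16 (limma 3.58.1, R 4.3.3): genes passing filterByExpr over the 4 groups, TMM factors, sex and strain as terms, the quasi-likelihood F-test, and Benjamini-Hochberg adjustment over all genes tested. A gene was called at an adjusted p under 0.05, and the standard error (SE) is the size of the log2 fold change divided by the square root of F. Where a strain was near 0 CPM, the log2 fold change depends on the small count added in the fit. The SE does not cover this. Over the alternatives named below, Fitm1 ran from 3.52 to 11.97 and Mx2 from -13.63 to -4.78. Dependence on sex and on diet was tested as an interaction among 4 and 8 group means, and the 10% fat contrast was fitted on its own libraries. CPM values printed use TMM factors over all 47 libraries, and where a group held no count the bound on a fold sets it to 3 counts over its 8 libraries. Counting intervals and such bounds cover counting error only. The library numbers in the text follow accession order and pair nothing.

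Genes were named by rule: unique symbols other than Rik and Gm models, the 12 highest and 12 lowest called genes of at least 3 average log2 CPM with the same sign in both sexes, up to 3 members per list by p, the 8 smallest p of each interaction among genes of at least 1 average log2 CPM, a fixed set of 40 genes, and genes on in one strain only or in stretches of neighbours. Some genes that meet the rule are not reported here. Alternatives were other scalings, other filters, DESeq2 1.42.0, limma on the deposited log2 values, all 47 libraries, a 1.5-fold threshold, the identifier run or a clock score as covariate, single runs, single sexes, and each library left out in turn. The code was tested on simulated data. Promoters came from RefSeq's GRCm38.p6 table; gene coordinates are those of the deposited annotation in GRCm38.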

Additional observations from a re-analysis of the deposited data

Results flagged for a closer look

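For the 156 genes named with values, each group of 4 libraries of one strain and sex was examined for a library far from the other 3, meaning that its gap to the nearest of them took up a share of the group's range above Dixon's 95% critical value. Such a library was found in 49 of 613 groups (7.99%), where chance alone gives about 1 in 20. No library accounted for most of them. Several concern levels near 0 CPM, where a few counts make the gap.

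Among the 4 CAST females, CAST female 1 lay far above the other 3 in Esrra (22.7 CPM against 19.5 to 19.9), Ifi44 (0.372 CPM against 0.0513 to 0.0993), Iigp1 (0.0858 CPM against 0), Serpinb9 (3.97 CPM against 2.91 to 3), Slco2a1 (48.8 CPM against 32.3 to 34.1), Srebf1 (435 CPM against 286 to 302) and Tubb2a (41.3 CPM against 16.7 to 19.4). CAST female 2 lay far above the other 3 in Apoa1 (8220 CPM against 4310 to 4860), Cidea (0.0878 CPM against 0), Cpa1 (47.1 CPM against 0.0248 to 6.75) and Glul (1570 CPM against 1300 to 1350). CAST female 2 lay far below them in Steap3 (2.22 CPM against 3.09 to 3.16). CAST female 3 lay far above the other 3 in Cyp7b1 (679 CPM against 537 to 559) and Nnt (129 CPM against 109 to 112). CAST female 3 lay far below them in Aacs (11.9 CPM against 15.7 to 16) and Abcg8 (168 CPM against 228 to 236). CAST female 4 lay far above the other 3 in Fitm1 (0.0248 CPM against 0) and Irf7 (3.7 CPM against 2.72 to 2.84).

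Among the 4 CAST males, CAST male 1 lay far above the other 3 in Cpa1 (0.318 CPM against 0 to 0.0453), Mogat1 (0.0265 CPM against 0), Nr2f2 (33.1 CPM against 23 to 24.6) and Saa1 (2.36 CPM against 1.13 to 1.34). CAST male 1 lay far below them in Ugt3a2 (28.3 CPM against 34.1 to 35.2). CAST male 2 lay far above the other 3 in Ces2b (230 CPM against 165 to 171) and Rarres1 (0.0319 CPM against 0). CAST male 3 lay far above the other 3 in Cidea (0.0453 CPM against 0), Gbp10 (0.0679 CPM against 0), Hk2 (0.498 CPM against 0.22 to 0.255) and Plin2 (195 CPM against 152 to 158). CAST male 3 lay far below them in Cyp2d11 (18.3 CPM against 20.1 to 20.3). CAST male 4 lay far above the other 3 in Hamp (1.12 CPM against 0). CAST male 4 lay far below them in Clstn3 (0.0244 CPM against 0.159 to 0.186), Serpina1c (387 CPM against 418 to 423) and Zfp69 (0.855 CPM against 2.06 to 2.17).

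Among the 4 NZO females, NZO female 1 lay far above the other 3 in Fetub (427 CPM against 271 to 296). NZO female 1 lay far below them in Clstn3 (2.05 CPM against 7.01 to 7.64). NZO female 2 lay far below the other 3 in Mx2 (0 CPM against 0.0213 to 0.0242) and Pck1 (702 CPM against 1180 to 1260). NZO female 3 lay far above the other 3 in Cpa1 (0.568 CPM against 0 to 0.0287) and Pcx (1100 CPM against 852 to 872). NZO female 3 lay far below them in Bckdhb (90.1 CPM against 98.6 to 99.6). NZO female 4 lay far above the other 3 in Hsd17b7 (121 CPM against 92.5 to 97.2).

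Among the 4 NZO males, NZO male 2 lay far above the other 3 in Moxd1 (15.9 CPM against 0) and Mx2 (0.0502 CPM against 0). NZO male 2 lay far below them in Vldlr (8.9 CPM against 19.1 to 20.7). NZO male 3 lay far above the other 3 in Cpa1 (0.404 CPM against 0 to 0.0285) and Prlr (210 CPM against 137 to 148). NZO male 4 lay far below the other 3 in F7 (51.6 CPM against 55.8 to 56.5) and Tbc1d1 (3.48 CPM against 4.96 to 5.25).

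The strain difference also depended on sex, by edgeR's test of the interaction at an adjusted p under 0.05, in 37 of these genes, and the values below are the log2 fold change in females minus that in males. It was more negative in females for Cyp4a14 (-10.48), Cyp2b9 (-8.47), Cyp4a31 (-7.42), Mogat1 (-5.43), Cyp2b10 (-4.97), Saa1 (-4.13), Alas2 (-2.91), Lepr (-2.47), Sntg2 (-2.40), Cd36 (-2.28) and Cyp39a1 (-1.77). Smaller differences of the same direction were found for Gstt1 (-1.55), Pctp (-1.36), Pck1 (-1.35), Abcg8 (-1.10), Hsd17b11 (-1.001), Cyp3a25 (-0.98), Cyp8b1 (-0.88), Cyp2c44 (-0.83), Tkfc (-0.77), Abcg1 (-0.74), F7 (-0.48) and Decr1 (-0.46). It was more positive in females for Fras1 (5.43), Sqle (4.90), BC089597 (4.19), Iigp1 (3.03), Car3 (2.56), Chrna2 (2.52), Cyp2d11 (2.51), Slco2a1 (2.32), Cobl (1.82), Gstm2 (1.75), Echdc2 (1.57), Cd4 (1.56), Abca1 (0.60) and Ugt3a2 (0.52). The values of Cyp2b9, Cyp4a14, Iigp1 and Mogat1 rest on a group at or near 0 CPM, so their size depends on the small count added in the fit.

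The strain difference depended on diet in 7 of the genes, given here as the log2 fold change on 44% fat minus that on 10% fat: Ccng1 (0.65), Clstn3 (2.74), Ddah1 (1.27), E2f8 (-1.88), Serpinb9 (0.77), Tceal8 (1.17) and Zak (0.96).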

How the results depend on the processing

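No paired analysis was possible because the titles carry no replicate numbers. The counts of genes called on 44% fat (9179, of which 4750 higher and 4429 lower in NZO) stayed within 1.5 times of these values under the other scalings, filters and covariates, DESeq2, limma on the deposited log2 values, single sexes and all 47 libraries, and were 8918 to 9242 with one library left out (4593 to 4776 higher, 4293 to 4502 lower). They moved further with a tested fold of at least 1.5 (3334, with 1874 higher and 1460 lower) and in runs 1, 2 and 3 fitted alone (3945, 4749 and 4027, with 2067, 2479 and 2060 higher and 1878, 2270 and 1967 lower), which hold fewer libraries. At 2-fold or more, limma on the deposited log2 values, which compress low levels, called 690 genes higher and 560 lower against 1801 and 1319, and single libraries left out gave 1801 to 1890 and 1351 to 1410. Leaving out a library also loosens the expression filter, which lets more low genes be tested. The 10% fat count of 8019 was 7540 to 7954 with one library left out. The sex-dependent count of 1074 ran from 655 (without CAST male 2) to 1304 (without CAST female 1), with 712 without CAST female 4 and 683 without NZO male 4. The diet-dependent count of 22 ran from 9 to 95 with one library left out and was 193 with DESeq2, and the cause was not tested. Stretches of neighbours numbered 94 with 3 genes required and 69 with a 1.5-fold limit, against 33.

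Of the 156 genes named with values, 139 were called and 77 of these kept their direction and their call under every alternative run. In the rest, in sets that overlap, 52 lost the call in a single run, 30 with the tested fold of at least 1.5 and 15 in a single sex. Leaving out one library ended the call of 6 genes (Arntl, Cpa1, Cyp4a14, Mpo, Sqle and Zfp69), and the other settings ended that of Arntl, Cpa1 and Pck1. Of the genes that were not called, 13 passed under at least one alternative. Directions reversed in 4 genes that were called and in 14 that were not, and the cause was not tested. The called ones were Cpa1, at log2 fold changes of 2.96 in run 2 and 3.35 in run 3, Fabp4, at 0.13 in run 3, Igkc, at 0.17 in run 3, and Jchain, at 0.26 in run 3. In run 1 alone reversals were found for Cidec (-0.28), Clec4f (0.20), Ddah1 (-0.16), Echdc2 (-0.12), Igfbp1 (0.69) and Marco (0.060). Run 2 alone reversed Clec4f (0.043), Echdc2 (-0.79), Fras1 (-1.29) and Marco (0.21). Run 3 alone reversed Abcg1 (-0.43), Cidec (-0.92), Cobl (0.63), Cyp2b10 (-2.78), Cyp4a31 (-1.71), G6pc (-0.38), Saa1 (-0.43) and Slco2a1 (0.59). The NZO libraries of run 2 were both male and those of run 3 both female, so run and sex cannot be told apart in these fits. Females alone reversed Abcg1 (-0.088), Cidec (-0.91), Cobl (0.64), Cyp2b10 (-1.57), Cyp4a31 (-1.65), G6pc (-0.26) and Slco2a1 (0.42), and males alone reversed Clec4f (0.055), Echdc2 (-0.75), Fras1 (-1.04) and Marco (0.52). Library totals reversed Clec4f (0.013), the clock score reversed Echdc2 (-0.15) and G6pc (-0.16), and the run as a covariate reversed Echdc2 (-0.0041) and G6pc (-0.029). With one library left out the log2 fold change ran from -0.11 to 0.39 in Cidec, from -0.083 to 0.018 in Clec4f, from -0.028 to 0.81 in Cyp2b10, from -0.074 to 0.13 in Echdc2 and from -0.040 to 0.22 in G6pc.

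The labels do not say what the identifier runs are. Library totals in place of TMM factors shifted the median of all log2 fold changes by 0.0566. Genes under about 0.1 CPM rest on a few counts in each library, and differences between them were not detectable at this depth. Strand was not stated, so reads of antisense pairs cannot be told apart.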

Other observations

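Amino acid metabolism was called in both directions, with 12 of 32 genes of the urea cycle and amino acid catabolism higher in NZO and 9 lower, beside 30.9% and 28.8% of all genes tested. Glul, the glutamine synthetase of hepatocytes around the central vein, was at 627 to 986 CPM (median 789) in NZO and at 1180 to 1571 CPM (median 1333) in CAST (log2 fold change -0.75, SE 0.078, adjusted p = 2.29e-07). Fah, the last enzyme of tyrosine breakdown, was at 378 to 545 CPM (median 438) and at 244 to 309.9 CPM (median 298) (log2 fold change 0.63, SE 0.067, adjusted p = 2.79e-07). Bckdhb, a subunit of the branched-chain ketoacid dehydrogenase, was lower (log2 fold change -0.50, SE 0.057, adjusted p = 8.67e-07). In these 3 genes the NZO and CAST values did not overlap. Of 25 nuclear receptors 8 were lower, close to the share over all genes, and Pparg was the 1 higher (3 were higher without CAST male 1, and 2 without NZO female 4). Esrra, a receptor that drives mitochondrial genes, was at 11.6 to 17.7 CPM (median 15.2) and at 19.6 to 24.2 CPM (median 22.8) (log2 fold change -0.58, SE 0.062, adjusted p = 3.51e-07), and Nr2f2, COUP-TFII, was lower as well (log2 fold change -0.83, SE 0.096, adjusted p = 8.5e-07), both without overlap. Of 15 genes of the growth hormone and Stat5 axis 7 were lower and 1 was higher (2 without CAST female 3, CAST male 2, CAST male 4 or NZO male 3). Igfals, which carries insulin-like growth factor in plasma, and Stat5b, the transducer of growth hormone, had log2 fold changes of -0.75 (adjusted p = 8.73e-05) and -0.42 (adjusted p = 1.5e-04) by edgeR. Prlr, the prolactin receptor, was the higher one, at 136 to 501 CPM (median 287) against 38.3 to 365 CPM (median 143) (log2 fold change 1.10, SE 0.20, adjusted p = 2.05e-04), with overlap.

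Of 18 core clock genes 5 were lower, close to the share over all genes, and 1 was higher. With one library left out 3 to 7 were lower, the fewest without CAST male 2. The number higher was 0 without NZO male 1, 3 without NZO female 4 and 2 without CAST female 1 or 3 or NZO male 2 or 3. Nr1d1, a repressor that peaks by day, was at 19.9 to 112 CPM (median 67.8) in NZO and at 70.5 to 202 CPM (median 117) in CAST (log2 fold change -0.89, SE 0.25, adjusted p = 0.00639), and Arntl, which it represses, was at 6.47 to 29 CPM (median 18.4) and at 5.38 to 13.2 CPM (median 7.5) (log2 fold change 0.97, SE 0.34, adjusted p = 0.023). The Arntl call was lost without NZO male 1 (adjusted p = 0.0559) and with the identifier run as covariate (adjusted p = 0.0506). A score per library, the mean standardized log CPM of Dbp and Ciart minus that of Arntl and Npas2, was -2.83, -4.08, -2.23 and 1.05 in the 4 NZO females and 0.43 to 1.18 in 3 NZO males with -1.65 in NZO male 1. In CAST it was 0.27 to 1.83 in 7 libraries and -1.14 in CAST female 1. With this score as a covariate 8096 genes were called between the strains, against 9179. The hour of collection was not used here. Markers of B and plasma cells had 1 of 11 higher and 4 lower, with a median log2 fold change of 0.221. The number higher was 5 without NZO male 3, 3 without CAST male 1 and 2 without CAST female 1, CAST male 2 or 4, NZO female 3 or 4 or NZO male 1. Among the lower ones were the antibody genes Jchain (log2 fold change -1.04, adjusted p = 5.26e-04) and Igkc (log2 fold change -0.90, adjusted p = 0.00284), which are uncertain because antibody loci differ between strains. Neutrophil markers summed to 0.939 to 5.3 CPM in NZO and to 0.796 to 7.61 CPM in CAST. Of 5 tested 1, Mpo, was called, lower in NZO (log2 fold change -1.52, adjusted p = 0.0134), a call lost without CAST female 1 (adjusted p = 0.0601).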
